A study of Mus musculus with 33 samples.

Results

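Gpc3, Afp and Spink1 are genes that fetal liver or liver cancer is known to express, and these 3 genes, with their 5 probes, were described on 33 bead arrays out of 13618 genes tested. The members were chosen by their measured levels, since earlier results of these arrays had shown Gpc3 and Spink1 high in tumours. Their differences between tumours and floxed livers, and between tumours and surrounding livers, are therefore given as a description with no test.

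The arrays held mouse liver tissue in 7 groups, which the labels define by genotype and tissue. Mice labelled Sav1 -/- gave 11 tumours, labelled as hepatocellular carcinoma, and 7 surrounding livers, with 3 normal livers of Sav1 flox mice as controls. Mice labelled Mst1/2 -/- gave 4 tumours and 3 surrounding livers, with 3 normal livers of Mst1/2 flox mice as controls, and 2 further normal livers were labelled Wt (wild type). The Cre line that would delete the floxed alleles, the age of the mice and whether the arrays of a group came from separate animals are not given in the sources used here, and p-values therefore reflect array-to-array spread that may be technical. Sav1 encodes a scaffold of the Hippo pathway and Mst1 and Mst2 its kinases, which restrain the coactivators YAP and TAZ.

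Gpc3 encodes glypican-3, a heparan sulfate proteoglycan anchored to the cell surface by a lipid, which binds Wnt, hedgehog and growth factor ligands. Afp encodes alpha-fetoprotein, a serum protein of the albumin family made by yolk sac and fetal hepatocytes and silenced in the liver after birth. Spink1 encodes a secreted trypsin inhibitor that pancreatic acinar cells make and that is also raised in human liver cancers. Glypican-3 and alpha-fetoprotein are in clinical use as tissue and serum markers of hepatocellular carcinoma.

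Levels are log2 signals after background correction and quantile normalization across arrays, on which a probe without target reads about 6 and can read no lower than 5.64. A probe counted as above background on an array where its signal passed an estimated threshold, which lay between 82.4 and 111 signal units. Between 34.6% and 51.4% of the probes passed it per array. Where groups are said not to overlap, this describes their arrays, and the share of all genes without overlap is not given. The probe of the targeted gene Sav1 stood at 8.43 to 9.91 in the Sav1 tumours and at 8.93 to 9.57 in the Sav1 floxed livers, and that of Stk4 (Mst1) at 9.58 to 9.96 in the Mst1/2 tumours and at 9.59 to 9.83 in the Mst1/2 floxed livers. No source used here places either probe inside or outside the deleted sequence, and neither serves as a check of the knockout. On every array at least 14 of 16 mature hepatocyte markers were above background, which checks that the tissue is liver and not the label of carcinoma. By their deviations over 13792 probes above background on no array, the arrays were clustered and cut into 3 sets, a number that was set and not found. The mean correlation between arrays of a set was 0.136 in A, 0.013 in B and 0.0314 in C. With arrays of the other sets it was -0.101, -0.073 and -0.0343, so shared deviations were small in B and C. Set A held the 3 Sav1 floxed livers with Sav1 surrounding livers 1 to 3 and Sav1 tumours 1 to 3, set C held Sav1 surrounding livers 4 to 7 and Sav1 tumours 4 and 5, and set B held all others. For the members, values within a set are given beside pooled Sav1 differences where a set holds both groups, and for the gene lists the counts within set A are given beside those in Sav1 tumours against floxed livers. With 3 arrays a group, genes called in that comparison numbered 950 within set A, against 4621 over all arrays.

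The promoters of Gpc3 and Afp are shown because the levels of both genes moved with tumour tissue while their start regions differ in base composition. Each run is the RefSeq window from 250 bases before to 50 bases after the annotated gene start on build GRCm38.p6, read along the gene's own strand, with motif matches in capitals. The Gpc3 window is chrX:52613925-52614224 on the minus strand and the Afp window is chr5:90490464-90490763 on the plus strand.
Gpc3: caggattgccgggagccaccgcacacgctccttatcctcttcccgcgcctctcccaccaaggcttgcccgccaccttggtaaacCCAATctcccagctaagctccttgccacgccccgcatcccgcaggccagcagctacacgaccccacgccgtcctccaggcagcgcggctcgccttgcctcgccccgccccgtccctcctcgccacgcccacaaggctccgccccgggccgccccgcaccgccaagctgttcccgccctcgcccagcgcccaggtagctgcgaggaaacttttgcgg
Afp: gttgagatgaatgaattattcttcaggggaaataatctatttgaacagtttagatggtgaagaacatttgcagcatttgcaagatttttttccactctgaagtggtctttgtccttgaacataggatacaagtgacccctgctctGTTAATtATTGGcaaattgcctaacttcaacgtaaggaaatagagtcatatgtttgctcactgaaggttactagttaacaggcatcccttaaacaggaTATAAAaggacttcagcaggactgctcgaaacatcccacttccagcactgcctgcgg
The Gpc3 window was 70.7% G or C with 30 CpG pairs, higher in CpG pairs than 88.3% of the 32851 mouse promoters in the table. The Afp window was 40% G or C with 3 CpG pairs, against a median of 52.7% and 7 pairs over all promoters. Capitals in the Gpc3 window mark 1 CCAAT box at positions -166 to -162 from the start. In the Afp window they mark a TATA box (the letters TATAAA) at -7 to -2, part of a site of the hepatocyte factor HNF1 (the letters GTTAAT) at -105 to -100, and a CCAAT box on the opposite strand at -98 to -94. Searched on both strands, the TATA box stood in 13.6% of all promoters, the CCAAT box in 37.4% and the HNF1 letters in 7.1%. The letters CATTCC, which TEAD factors of the Hippo pathway bind, stood in neither window and in 14.7% of all promoters. These matches describe letters, and binding was not measured.

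Gpc3 was above background on every tumour and surrounding liver array of both lines. Its brightest probe, ILMN_2832979, ran from 10.18 to 13.62 over the 11 Sav1 tumours with a median of 12.07. Sav1 surrounding livers 1 to 7 stood at 7.85, 8.45, 9.79, 8.52, 11.22, 9.67 and 9.25. The 3 Sav1 floxed livers stood at 6.82, 6.98 and 6.72, the last not above background. The floxed livers overlapped neither group of knockout tissue, and Sav1 surrounding liver 5 lay above the 2 lowest tumours, numbers 8 and 2, at 10.18 and 10.48. In the Mst1/2 line Gpc3 stood at 13.32, 13.63, 13.20 and 13.77 in tumours, at 11.39, 12.63 and 11.49 in surrounding livers, and at 6.51, 6.46 and 6.86 in floxed livers, the second of which was not above background. The 3 Mst1/2 groups did not overlap. Wild-type livers, at 6.12 and 6.39, were not above background.

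Gpc3 averaged 11.98 ± 1.02 (SD, n = 11) in Sav1 tumours, against 9.25 ± 1.12 (n = 7) in the surrounding and 6.84 ± 0.13 (n = 3) in the floxed livers of that line. The Sav1 tumours were 35.2-fold above the floxed livers (log2 difference 5.14 ± 0.54, SE) and 6.64-fold above the surrounding livers (2.73 ± 0.40). Within set A these differences were 4.50 and 2.65, and within set C the tumours exceeded the surrounding livers by 3.18. Mst1/2 tumours averaged 13.48 ± 0.26 (n = 4) and were 117-fold above the Mst1/2 floxed livers, at 6.61 ± 0.22 (n = 3), and 3.12-fold above the surrounding livers, at 11.84 ± 0.69 (n = 3). Gpc3 signals of the floxed livers lay near the threshold, at 92.4 to 119 units in the Sav1 and 82.5 to 100 in the Mst1/2 line. Folds over them therefore depend on the background correction. In bulk tissue more cells of a type and more RNA per cell cannot be told apart. The second probe of the transcript, ILMN_2719973, gave log2 differences of 4.80 in the Sav1 line and 6.74 in the Mst1/2 line for tumours against floxed livers. Another probe, ILMN_1223663, designed on the separate transcript record AK077942, was above background on 0 of 33 arrays.

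**Figure D1:**
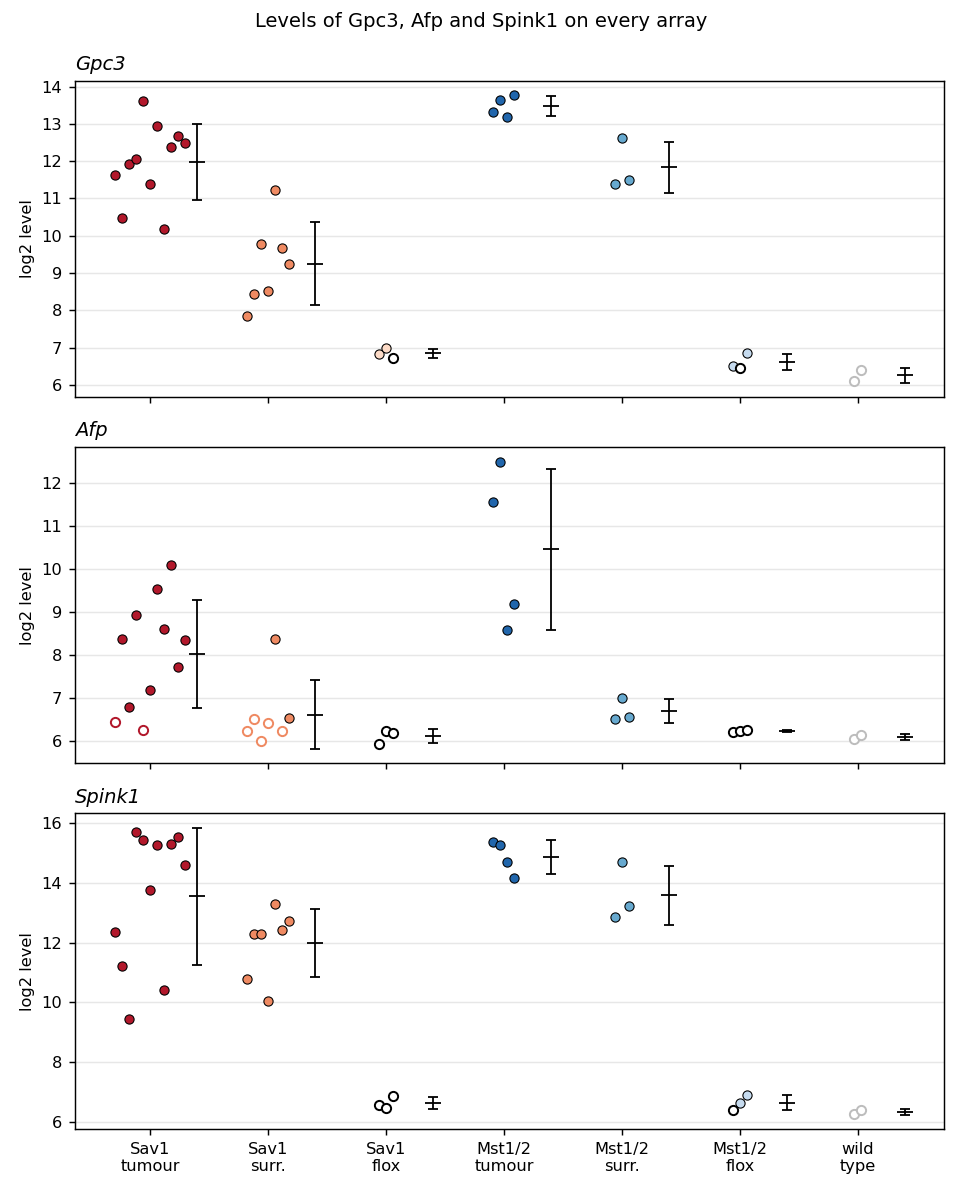
Log2 level of the Gpc3, Afp and Spink1 probes on each array (points; open where not above background) in the 7 groups, with tumour left of surrounding and floxed liver in each line; the bar beside each group is its mean and SD. Gpc3 and Spink1 are above background on every tumour and surrounding liver array, from 7.85 up for Gpc3 and from 9.45 up for Spink1. Both lie near 6 to 7 in all normal livers, whereas Afp leaves that range mainly in tumours.

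Afp differed from the other members in being low outside tumours. Its probe, ILMN_1245472, stood in Sav1 tumours 1 to 11 at 6.43, 8.38, 6.78, 8.92, 6.25, 7.20, 9.55, 8.61, 10.09, 7.73 and 8.35, and tumours 1 and 5 were not above background. Of the 7 Sav1 surrounding livers, 2 were above background, number 5 at 8.38 and number 7 at 6.54, and the others lay between 5.99 and 6.50. The Sav1 floxed livers stood at 5.93, 6.24 and 6.17 and none was above background. The 9 Sav1 tumours above background all exceeded the floxed livers, and tumours 1 and 5 could not be told from them. Mst1/2 tumours stood at 11.56, 12.50, 8.58 and 9.18, Mst1/2 surrounding livers at 6.50, 7.01 and 6.57, and Mst1/2 floxed livers at 6.20, 6.24 and 6.24. The Mst1/2 surrounding livers were above background on all 3 arrays and the floxed livers on none. The wild-type livers, at 6.04 and 6.14, were not above background either.

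Afp averaged 8.03 ± 1.26 (SD, n = 11) in Sav1 tumours, against 6.61 ± 0.80 (n = 7) in surrounding and 6.12 ± 0.16 (n = 3) in floxed livers. The Sav1 tumours were at least 2.4-fold above the floxed livers. This bound sets the floxed livers at the lowest level that passed the threshold on each array or at their own level, whichever was higher. Mst1/2 tumours averaged 10.46 ± 1.87 (n = 4) and were at least 15.9-fold above the Mst1/2 floxed livers, at 6.23 ± 0.03 (n = 3), and 13.6-fold above the surrounding livers, at 6.69 ± 0.28 (n = 3). Within set A the Sav1 tumours exceeded the floxed livers by 1.08 on the measured log2 scale, against 1.91 over all arrays, and the surrounding livers by 0.95, against 1.41. Within set C the tumours exceeded the surrounding livers by 0.69.

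Spink1, through its probe ILMN_2708477, was above background on every tumour and surrounding liver array. Sav1 tumours 1 to 11 stood at 12.36, 11.22, 9.45, 15.70, 15.43, 13.75, 15.27, 10.42, 15.28, 15.51 and 14.59. Tumours 1, 2, 3 and 8 lay lowest and the other 7 at 13.75 or above. Sav1 surrounding livers ran from 10.05 to 13.28 with a median of 12.29, and the floxed livers, at 6.57, 6.46 and 6.85, were not above background. Tumours 2, 3 and 8 thus lay below the median surrounding liver, and the tumours overlapped the surrounding livers but not the floxed ones. Mst1/2 tumours stood at 15.37, 15.26, 14.70 and 14.15, Mst1/2 surrounding livers at 12.84, 14.70 and 13.21, and Mst1/2 floxed livers at 6.40, 6.62 and 6.90, with 2 of the 3 above background. The wild-type livers stood at 6.26 and 6.39, neither above background.

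Spink1 averaged 13.54 ± 2.29 (SD, n = 11) in Sav1 tumours, against 11.97 ± 1.14 (n = 7) in the surrounding and 6.63 ± 0.20 (n = 3) in the floxed livers of that line. The Sav1 tumours were at least 110-fold above the floxed livers and 2.97-fold above the surrounding livers (log2 difference 1.57 ± 0.72, SE). The difference between tumours and surrounding livers was -0.77 within set A (3 tumours and 3 surrounding livers), where the tumours were lower. Within set C (2 tumours and 4 surrounding livers) it was 3.45. With so few arrays, array set and spread between tumours cannot be told apart. Against floxed livers the Sav1 tumours exceeded by 4.38 within set A, against 6.92 over all arrays. Mst1/2 tumours averaged 14.87 ± 0.56 (n = 4) and were 300-fold above Mst1/2 floxed livers, at 6.64 ± 0.25 (n = 3), and 2.44-fold above Mst1/2 surrounding livers, at 13.58 ± 0.98 (n = 3). Spink1 signals of these floxed livers, at 79.8 to 102 units, lay near the threshold. The 300-fold therefore depends on the background correction and is not comparable with the bound in the Sav1 line. On 8 arrays the Spink1 signal exceeded 50% of that of the array's brightest probe, reaching 56400 units. Whether the scanner range limits these values was not tested.

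The order of the group means differed between the members. For Gpc3 it ran from Mst1/2 tumours at 13.48 through Sav1 tumours at 11.98, Mst1/2 surrounding livers at 11.84, Sav1 surrounding livers at 9.25, Sav1 floxed livers at 6.84 and Mst1/2 floxed livers at 6.61 to wild-type livers at 6.25. The Sav1 tumours and Mst1/2 surrounding livers overlapped, with means 0.14 apart. For Afp the tumours of both lines led at 10.46 and 8.03, and each of the 7 groups overlapped its neighbour in the order. For Spink1 the 2 middle groups, Mst1/2 surrounding livers at 13.58 and Sav1 tumours at 13.54, were 0.04 apart and overlapped, and the only break above the normal livers lay between Sav1 surrounding livers at 11.97 and Mst1/2 floxed livers at 6.64.

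Surrounding livers were compared with floxed livers to ask whether the members were already raised in knockout liver outside the tumours. These tests share the floxed controls with the contrast that chose the members. In the Sav1 line 2 of the 3 members rose, where 5.29% of all genes tested rose. Gpc3 was 5.3-fold higher in surrounding livers (log2 difference 2.41 ± 0.57, SE, limma adjusted p = 0.0083), and all 7 surrounding livers exceeded all 3 floxed livers. Spink1 was at least 36.9-fold higher (5.34 ± 1.03, adjusted p = 0.0019), likewise without overlap. Afp differed by 0.50 ± 0.71 (adjusted p = 0.68), with overlapping groups. Within set A, with 3 arrays a group, Gpc3 differed by 1.85 (limma adjusted p = 0.21), Afp by 0.13 (adjusted p = 0.91) and Spink1 by 5.16 (adjusted p = 0.038). With the array set as a block, Gpc3 differed by 1.73 (adjusted p = 0.086), so its call was lost, and Spink1 by 4.16 (adjusted p = 0.019).

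In the Mst1/2 line 2 of the 3 members rose in surrounding livers, where 2.76% of all genes tested did. Gpc3 was 37.4-fold higher in the surrounding livers than in the floxed livers (5.22 ± 0.67, limma adjusted p = 1.2e-05). Spink1 was 123-fold higher (6.94 ± 1.21, adjusted p = 0.0008), and Afp differed by 0.47 ± 0.84 (adjusted p = 0.85). The Afp groups did not overlap, which with 3 arrays a group is a description only. With only the groups compared in the fit, the adjusted p for Afp was 0.033. The Gpc3 and Spink1 folds were taken over floxed signals near the threshold. All these arrays lay in set B. The floxed Mst1/2 livers differed from the knockout tissue in sex-linked transcripts: Xist stood at 6.07 to 6.18 in surrounding livers and at 10.55 to 11.21 in floxed livers, and Eif2s3y of the Y chromosome at 11.27 to 11.36 in surrounding livers and at 6.05 to 6.16 in floxed livers. All Mst1/2 tumours also showed the male pattern, with Xist at 6.08 to 6.31. In every comparison with the Mst1/2 floxed livers, for members and gene lists alike, sex and knockout cannot be told apart. Sav1 floxed livers showed the male pattern, with Xist at 6.10 to 6.33 and Eif2s3y at 11.25 to 11.79. Wild-type livers were low in both, with Xist at 6.30 and Eif2s3y at 6.70 and 6.99. Gpc3, Afp and Spink1 in both groups lay near their levels in the Mst1/2 floxed livers. The part of sex in the differences was not tested.

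The rises against floxed livers were set against each other in a test of the difference between the lines. For 0 of the 3 members did it pass by limma, where 0.587% of all genes tested differed, and 1 of the 3 had an unadjusted p under 0.05. The rise of Gpc3 was smaller in the Sav1 line by 2.82 ± 0.88 on the log2 scale (adjusted p = 0.15), that of Spink1 differed by -1.60 ± 1.59 (adjusted p = 0.74) and that of Afp by 0.03 ± 1.11 (adjusted p = 0.99). No array set held all 4 groups. With the set as a block the values were -3.50 for Gpc3 (adjusted p = 0.056), -2.78 for Spink1 (adjusted p = 0.56) and -0.28 for Afp (adjusted p = 0.96).

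Between the lines' surrounding livers themselves, 1 of the 3 members passed, where 0.485% of all genes tested were lower in the Sav1 line. Gpc3 was 6.01-fold lower in Sav1 than in Mst1/2 surrounding livers (log2 difference -2.59 ± 0.57, SE, limma adjusted p = 0.021), and the groups did not overlap. The call rested on each of the 3 Mst1/2 arrays: without number 1, 2 or 3 the difference was -2.81, -2.19 or -2.76 (adjusted p = 0.071, 0.20 and 0.088). Spink1 differed by -1.61 ± 1.03 (adjusted p = 0.53) and Afp by -0.08 ± 0.71 (adjusted p = 0.98). With the replicate number as a block Spink1 passed, at -1.80 (adjusted p = 0.031), although arrays of the 2 lines that share a number cannot be one animal. The Sav1 surrounding livers lay in sets A and C and the Mst1/2 ones in set B, so line and array set cannot be told apart here.

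The tumours of both lines were compared to ask whether their levels differed. The members were chosen with these tumour values known, so the p-values are not independent of that choice. Of the 3 members 1 was lower in Sav1 tumours, where 2.5% of all genes tested were. Afp was 5.4-fold lower in Sav1 than in Mst1/2 tumours (-2.43 ± 0.60, limma adjusted p = 0.021), with overlapping groups. It failed without Mst1/2 tumour 1 (-2.07, adjusted p = 0.12) or 2 (-1.75, adjusted p = 0.17), the arrays with the highest Afp. Gpc3 differed by -1.50 ± 0.48 (adjusted p = 0.071) and passed without Sav1 tumour 5, its highest array, at -1.66 (adjusted p = 0.037). Spink1 differed by -1.32 ± 0.87 (adjusted p = 0.43). Within set B, which held 6 Sav1 and 4 Mst1/2 tumours, the differences were -1.47 for Gpc3 (adjusted p = 0.033), -1.87 for Afp (adjusted p = 0.080) and -0.73 for Spink1 (adjusted p = 0.59).

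The members varied widely among tumours of one genotype. Over the 11 Sav1 tumours the SD was 1.02 for Gpc3, 1.26 for Afp and 2.29 for Spink1, where the median gene had 0.37. These SDs lay at the 95.6, 97.8 and 99.8 percentiles of the 13618 genes. Over the 7 Sav1 surrounding livers they were 1.12, 0.80 and 1.14, where the median gene had 0.26. Within set B, with 6 Sav1 tumours, the SDs were 1.04, 1.09 and 1.93, and within set C, with 4 surrounding livers, 1.14, 1.00 and 1.42. The members did not vary as one, as tumour 5 had the highest Gpc3 of its group (13.62), Spink1 at 15.43 and the lowest Afp (6.25), and tumour 3 had Gpc3 at 11.91 with the lowest Spink1 (9.45).

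Of 6 relations between members tested over arrays, 0 passed after adjustment. Gpc3 and Spink1 had Pearson's r = 0.73 (permutation p = 0.015, adjusted p = 0.091) and Spearman's rho = 0.70 (permutation p = 0.021, adjusted p = 0.12) over the 11 Sav1 tumours, and r = 0.54 without the 2 arrays farthest from the median Gpc3. Over the 7 surrounding livers the same pair had r = 0.76 (exact permutation p = 0.032, adjusted p = 0.096) and rho = 0.75 (exact permutation p = 0.066, adjusted p = 0.20), and r = 0.56 without 2 arrays. Within set B, the only set with 6 Sav1 tumours, r was 0.96, and tumour 8 was lowest there in both genes (10.18 and 10.42). In set A, tumours 1 to 3 had Gpc3 at 11.63, 10.48 and 11.91 with Spink1 at 12.36, 11.22 and 9.45. In set C, tumours 4 and 5 had Gpc3 at 12.07 and 13.62 with Spink1 at 15.70 and 15.43. Gpc3 and Afp had r = -0.08 in tumours (permutation p = 0.81) and 0.28 within set B, and in surrounding livers r = 0.70 (exact permutation p = 0.23), which became -0.74 without 2 arrays and so rested on them. Afp and Spink1 had r = 0.30 in tumours (permutation p = 0.36) and 0.49 in surrounding livers (exact permutation p = 0.13).

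**Figure D2:**
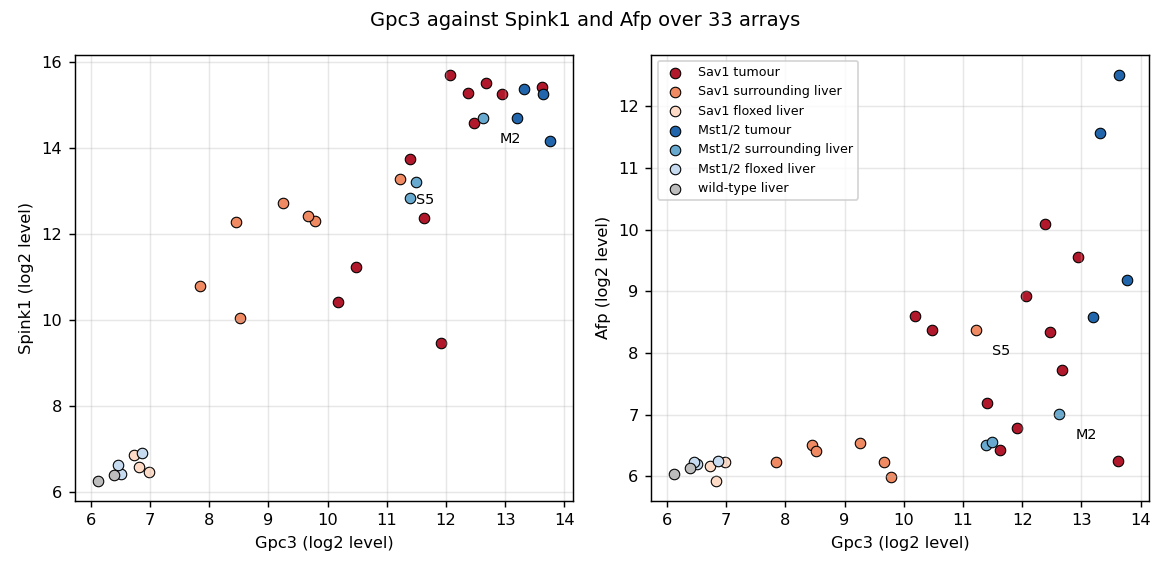
Log2 level of Spink1 (left) and Afp (right) against that of Gpc3 on each of the 33 arrays, coloured by group; S5 marks Sav1 surrounding liver 5 and M2 marks Mst1/2 surrounding liver 2. The 8 normal livers form one cluster at low Gpc3 and low Spink1, and S5 and M2 have the highest Gpc3 of their groups, at 11.22 and 12.63.

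Sav1 surrounding liver 5 and Mst1/2 surrounding liver 2 had the highest levels of all 3 members in their groups. The first had the highest Gpc3 (11.22), Afp (8.38) and Spink1 (13.28) of the 7 Sav1 surrounding livers, and Igf2 at 13.91, where the other 6 lay between 7.92 and 9.36. Its summed biliary and progenitor markers were the highest of its group (12.92), whereas its YAP/TAZ target genes (14.21) lay below number 2 (14.55) and its cell cycle genes (12.32) below numbers 4 (13.22) and 2 (12.74). Mst1/2 surrounding liver 2 had the highest Gpc3 (12.63), Afp (7.01) and Spink1 (14.70) of its 3, and the highest summed cell cycle (12.74) and YAP/TAZ target genes (14.43). Whether either sample held tumour tissue was not tested. Without both arrays Gpc3 was lower in Sav1 than in Mst1/2 surrounding livers by -2.52 on the log2 scale (adjusted p = 0.070).

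Genes whose levels followed a member over the 11 Sav1 tumours are given as a description, by Pearson's r among all genes tested. Nearest to Gpc3 were Atp10d (0.853), Tmem216 (0.852), Saxo2 (0.847), Morn5 (0.843) and Flywch2 (0.839), and Cdh17, a cadherin, ran opposite (-0.887) with B430306N03Rik (-0.873). Afp was followed by Plcb2 (0.883), Slc16a6 (0.87), the neutrophil gene S100a9 (0.864), Zc3h7a (0.855) and Rnf208 (0.855), with Tmem9 (-0.894) and Cela2a (-0.89) opposite. Nearest to Spink1 were Kcna3 (0.94), the hepatocyte enzymes Ces1g (0.925) and Cyp2a12 (0.92), Pak6 (0.92) and Klhl13 (0.917), with Pde4d (-0.957) and Irak2 (-0.939) opposite. Several of these stayed near background, among them Saxo2 (6.45 to 7.12) and Kcna3 (6.03 to 6.68). Over the 7 surrounding livers the correlation with the same member was 0.557 for Atp10d, 0.734 for S100a9, -0.354 for Ces1g and -0.345 for Cyp2a12. Any deviations that arrays of one set share, small in sets B and C, are included in such correlations.

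Other genes of fetal liver and liver cancer, chosen with earlier results of these arrays known, rose in tumours in part. Of 26 listed genes 16 could be tested. In Sav1 tumours against floxed livers 6 rose and 0 fell, with a median log2 difference of 1.03 (all genes 0.06, 17.8% of which rose). The largest rises were in Lpl, a lipase of fetal rather than adult liver, at 11.2-fold (3.49 ± 0.45, adjusted p = 2e-06), Ly6d at 3.06-fold or more, Bex1 at 2.38-fold or more and the glycolytic gene Pkm at 1.65 ± 0.55 on the log2 scale. In Mst1/2 tumours 6 rose and 0 fell, with a median of 1.23 (all genes 0.00, 11.7% of which rose). They were led by the fetal growth factor Igf2 at 188-fold (7.56 ± 1.61, adjusted p = 0.0013), the tight junction gene Cldn6 at 33.5-fold (5.07 ± 0.69), the imprinted gene Peg3 at 12.3-fold and Lpl at 10.1-fold. The Sav1 count was 3 within set A, 3, 2 and 2 without Sav1 floxed liver 1, 2 and 3, and the Mst1/2 count was 3 without Mst1/2 tumour 2.

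In surrounding livers 0 of the 16 rose by limma in the Sav1 line (2 at an unadjusted p under 0.05, median 0.33, all genes 0.03) and 2 in the Mst1/2 line, Cldn6 at 7.83-fold (2.97 ± 0.74, adjusted p = 0.018) and Lpl at 2.05 ± 0.57 on the log2 scale. Without any one of the Mst1/2 floxed livers 4, 5 and 6, or without Mst1/2 surrounding liver 2, the Mst1/2 count was 0, and without Mst1/2 surrounding liver 3 it was 1. Between Sav1 tumours and Sav1 surrounding livers 3 rose, Lpl, Bex1 and Sall4, and Dlk1 fell by 0.45, where 7.34% of all genes rose and 6.06% fell. Against Mst1/2 tumours, Igf2 (-5.56 ± 1.23), Cldn6 (-4.39 ± 0.53), Peg3 (-2.79 ± 0.80) and Scd2 (-1.12 ± 0.32) were lower in Sav1 tumours and 0 of the 16 were higher by limma (1 at an unadjusted p under 0.05), where 2.5% of all genes were lower and 1.5% higher. The count of 4 became 2 without Sav1 tumour 6, 8, 10 or 11 or without Mst1/2 tumour 1 or 2. In Sav1 tumours Igf2 stood at 15.63 in number 7 and 15.34 in number 9, the tumours with the highest Afp of that line, at 11.20 and 11.08 in numbers 4 and 11, and at 7.06 to 8.52 in the other 7, against 15.04 to 15.62 in Mst1/2 tumours.

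**Figure D3:**
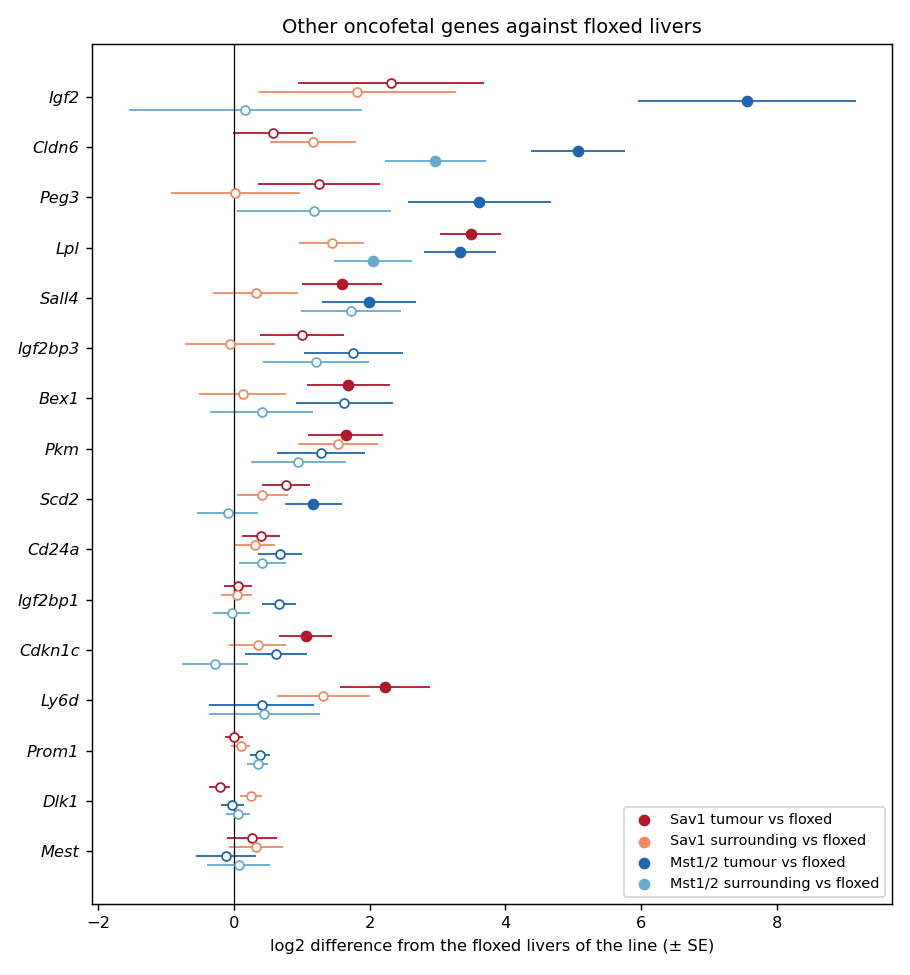
Log2 difference ± SE of 16 other oncofetal genes from the floxed livers of the same line, for tumours and surrounding livers of the Sav1 line (reds) and the Mst1/2 line (blues); filled points passed an adjusted p of 0.05. Igf2 and Cldn6 lie farthest right in Mst1/2 tumours, at 7.56 and 5.07, and Lpl is filled in the tumours of both lines.

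Few relatives and known regulators of Afp passed the test. Of 15 tested genes of the albumin family and factors that act on Afp, 0 rose and 2 fell in Sav1 tumours (median -0.01), where 17.8% of all genes rose and 16.1% fell, and within set A 0 of the 15 passed. The 2 were Cebpa, a factor of mature hepatocytes (-1.87 ± 0.35, adjusted p = 0.00023), and the pioneer factor Foxa2 (-0.96 ± 0.20, adjusted p = 0.00049). In Mst1/2 tumours Foxa3 rose by 1.29 ± 0.27 and Foxa2 fell by 0.73 on the log2 scale, where 9.22% of all genes fell. The fall was lost without Mst1/2 floxed liver 5 or Mst1/2 tumour 1. Under median scaling, which moved all genes up by 0.45 in Sav1 and 0.27 in Mst1/2 tumours, 3 rose and 1 fell in Sav1 tumours, and 3 rose and 0 fell in Mst1/2 tumours. Zhx2 and Zbtb20, which repress Afp after birth in mice, differed by -0.19 ± 0.18 and 0.20 ± 0.27 between Sav1 tumours and floxed livers, and by -0.03 ± 0.21 and 0.68 ± 0.32 between Mst1/2 tumours and floxed livers. Sav1 tumours 9, 7 and 4, with the highest Afp (10.09, 9.55 and 8.92), had the lowest Zhx2 of the 11 (7.37, 6.99 and 7.31). This was seen only after the values were examined, and their Zbtb20 stood at 11.61, 12.29 and 11.39. Tumour 8, next in Afp at 8.61, had Zhx2 at 8.05. Mst1/2 tumours 1 to 4, with Afp at 11.56, 12.50, 8.58 and 9.18, had Zhx2 at 7.81, 7.33, 7.63 and 7.26. A relation of Zhx2 with Afp was not tested. Alb, the neighbour of Afp on its chromosome, differed by 0.15 ± 0.43 in Sav1 tumours and by -1.27 ± 0.50 in Mst1/2 tumours, neither past the threshold. Its probe stood at 7.59, 8.12 and 7.65 in Sav1 floxed livers and at 10.02, 10.26 and 10.62 in Mst1/2 floxed livers. Whether that probe follows Alb RNA was not tested. In surrounding livers Foxa2 fell in the Sav1 line (-0.86 ± 0.21), where 5.52% of all genes fell, though not under median scaling, and 0 of the 15 passed in the Mst1/2 line by limma (1 lower at an unadjusted p under 0.05).

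Of 19 tested genes of glypicans, syndecans and their enzymes, 2 rose and 4 fell in Sav1 tumours (median -0.07), where 17.8% of all genes rose and 16.1% fell. Within set A 0 rose and 1 fell. The rises numbered 0 without Sav1 floxed liver 3 or Sav1 tumour 5, 9, 10 or 11, 1 without Sav1 floxed liver 1 or 2 or Sav1 tumour 4 or 7, and the falls 2 without Sav1 floxed liver 2. Gpc1, a glypican, was 4.48-fold lower (-2.16 ± 0.40, adjusted p = 0.0002), and the syndecan Sdc1 (-1.04 ± 0.28), the sulfatase Sulf2 (-1.02 ± 0.28) and the protease Furin (-0.84 ± 0.23) also fell. The sulfatase Sulf1 was at least 1.66-fold higher. In Mst1/2 tumours Ext1, which extends heparan sulfate chains, rose by 1.04 ± 0.22, and Notum, a lipase that releases glypicans and inactivates Wnt, fell by 2.55 ± 0.90, with Sdc1 (-1.64 ± 0.32) and Sulf2 (-1.28 ± 0.33). Under median scaling 6 rose and 1 fell in Sav1 tumours, and 2 rose and 1 fell in Mst1/2 tumours. Gpc4, the gene beside Gpc3, differed by 0.21 ± 0.25 in Sav1 tumours and by -0.21 ± 0.29 in Mst1/2 tumours. In surrounding livers Gpc1 fell in the Sav1 line (-1.69 ± 0.43, adjusted p = 0.013), and Sdc1 (-1.29 ± 0.34) and Sulf2 (-1.21 ± 0.35) fell in the Mst1/2 line, where 1.41% of all genes did. Leaving out any 1 array of these Mst1/2 groups took the count of falls to 1 or 0, and the Sav1 count of 1 became 0 without Sav1 floxed liver 2 or 3. Under median scaling 0 of the 19 fell in the surrounding livers of either line.

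Among 21 tested ligands, receptors and partners through which glypican-3 acts, 4 rose and 2 fell in Sav1 tumours (median 0.07), where 17.8% of all genes rose and 16.1% fell, so the rises lay at the background. Within set A 0 rose and 1 fell, and without Sav1 floxed liver 3 the rises numbered 2, without Sav1 floxed liver 2 the falls 1. The Wnt receptors Fzd1 (1.35 ± 0.41) and Fzd7 (0.85 ± 0.27), the hedgehog transducer Smo (0.54 ± 0.17) and Cd81 (0.36 ± 0.11) rose, and the Wnt coreceptor Lrp6 fell (-1.24 ± 0.24, adjusted p = 0.00033) with Fgfr4 (-0.55 ± 0.15). In Mst1/2 tumours 4 rose and 1 fell, where 11.7% of all genes rose and 9.22% fell, led by Bmp4 at 4.67-fold (2.22 ± 0.63, adjusted p = 0.013) and Smo (0.90 ± 0.20). These rises numbered 1 without Mst1/2 floxed liver 4 and 2 without floxed liver 6 or tumour 2, and the fall was lost without any one of the floxed livers or of tumours 1, 2 and 4. Under median scaling 8 rose and 1 fell in Sav1 tumours, and 5 rose and 0 fell in Mst1/2 tumours. In Sav1 surrounding livers 0 rose by limma (1 at an unadjusted p under 0.05) and Lrp6 and Fgfr4 fell, neither of them under median scaling or without Sav1 floxed liver 2 or 3, and 1 of them without Sav1 surrounding liver 4 or 7. In Mst1/2 surrounding livers 0 of the 21 passed (3 higher and 1 lower at an unadjusted p under 0.05).

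Protease inhibitors other than Spink1 rose in part. Spink2 and Spink4 differed by 0.38 ± 0.18 and 0.23 ± 0.31 in Sav1 tumours, and 5 further Spink genes and 3 trypsins on the list were too dim to test. The 12 genes tested also included the trypsin Prss3 and the receptor Egfr, which are not inhibitors. Of all 12, 4 rose and 2 fell in Sav1 tumours (median 0.28), where 17.8% of all genes rose and 16.1% fell. Within set A 2 rose and 2 fell. Slpi, a secreted inhibitor of leukocyte proteases, was 18.2-fold higher (4.18 ± 0.63), Serpinb6a 11.3-fold, the membrane inhibitor Spint1 5.74-fold and Wfdc2 by 2.36 ± 0.80 on the log2 scale. In Mst1/2 tumours, where 4 rose against 11.7% of all genes, Slpi was 29.7-fold higher (4.89 ± 0.74), Spint1 19.9-fold and Serpinb6a 9.42-fold. In surrounding livers Slpi rose 6.73-fold in the Sav1 line (2.75 ± 0.67) and by 3.79 ± 0.79 in the Mst1/2 line. The Sav1 count of 2 became 1 without Sav1 floxed liver 2 or 3. Serpinb1a, an inhibitor of neutrophil proteases, fell in Sav1 tumours (-1.71 ± 0.21) and Mst1/2 tumours (-0.91 ± 0.24), the second not under median scaling.

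Of 14 other tested tissue and serum markers of liver cancer, 6 rose in Sav1 tumours (median 1.05) and 8 in Mst1/2 tumours (median 1.79), and 0 fell in either, where 17.8% and 11.7% of all genes rose. Within set A 5 rose. Lcn2 was 48.0-fold higher in Sav1 tumours (5.58 ± 0.65) and 7.77-fold in Mst1/2 tumours (2.96 ± 0.76). Anxa2 was 12.9-fold and 10.4-fold higher, and Tff3, dim in all floxed livers, at least 5.41-fold and at least 37.1-fold. Akr1c18, above background on no Mst1/2 floxed array, was at least 6.74-fold higher in Mst1/2 tumours and was the 1 marker lower in Sav1 than in Mst1/2 tumours (-2.22 ± 0.48), a count that was 0 without Mst1/2 tumour 1 or 2 and 3 without Sav1 tumour 4. In surrounding livers Lcn2 (5.25 ± 0.68), Ccnd1 (2.10 ± 0.50) and Anxa2 (1.72 ± 0.39) rose in the Sav1 line, and Mdk (2.92 ± 0.55) and Anxa2 (2.67 ± 0.46) in the Mst1/2 line.

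Markers of other cell types moved with the same groups, and their part in the members' differences was not tested. The summed level of 16 mature hepatocyte markers ran from 17.16 to 17.70 in Sav1 tumours, 17.78 to 18.17 in surrounding livers and 18.20 to 18.48 in floxed livers. In Sav1 tumours 6 of the 16 fell (median -1.17), led by Cyp2f2 (-6.21 ± 1.08) and Hal (-4.74 ± 0.79), and 6 fell in Mst1/2 tumours (median -1.45), where 16.1% and 9.22% of all genes fell. Within set A 5 fell. The Mst1/2 count was 3 without any one floxed liver and 2 without tumour 1 or 2. Biliary and progenitor markers ran from 12.18 to 14.70 in Sav1 tumours, 11.31 to 12.92 in surrounding livers and 10.40 to 10.69 in floxed livers, and in the Mst1/2 line from 12.97 to 14.13, 13.53 to 13.87 and 10.55 to 10.88. Of 8 tested biliary and progenitor markers 2 rose in Sav1 tumours, Sox4 (3.53 ± 0.40) and Sox9 (3.10 ± 0.56), and 3 in Mst1/2 tumours, Sox4, Sox9 and Krt7, with 1 rising within set A. Sox9 alone made up a median of 50.4% of the biliary and progenitor sum, and Ccnd1 65.8% of the cell cycle sum. The biliary keratins Krt19 and Krt7 and the channel Cftr were above background on no Sav1 floxed liver and on 4, 10 and 8 of the 11 Sav1 tumours. Krt19 differed by 0.22 ± 0.29 in Sav1 tumours, 0.77 ± 0.34 in Mst1/2 tumours and 1.04 ± 0.36 in Mst1/2 surrounding livers, Krt7 by 0.60 ± 0.30 in Sav1 tumours and Cftr by 0.93 ± 0.41, with adjusted p from 0.079 to 0.58, and Epcam was above background on too few arrays to test. Of 9 tested cell cycle genes 8 rose in Sav1 tumours and 6 in Mst1/2 tumours, the second 2 without Mst1/2 floxed liver 6, and of 12 YAP/TAZ target genes 9 rose in the tumours of each line, where 17.8% and 11.7% of all genes rose. Within set A 7 cell cycle and 4 YAP/TAZ target genes rose.

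Because Spink1 is known from the pancreas, pancreatic acinar markers were measured on the same arrays. Cpa1, Pnliprp1, Cel, Prss2, Try4 and the acinar factor Ptf1a were above background on fewer than 3 arrays each. The summed level of the 9 tested acinar markers ran from 13.49 to 14.87 in Sav1 tumours, 13.95 to 14.52 in surrounding livers and 14.61 to 15.15 in floxed livers. Amy2a5, an amylase gene, made up a median of 92.6% of that sum. Without it, a choice made after seeing the data, the other 8 summed to 9.96 to 12.03 in Sav1 tumours, 10.15 to 11.15 in surrounding and 11.02 to 12.23 in floxed livers, and in the Mst1/2 line to 9.79 to 10.29, 10.00 to 10.19 and 10.72 to 11.65. The part of acinar RNA in the Spink1 differences was not tested. Of these 9 genes, with a median difference of -0.01, 2 rose in Sav1 tumours, Rnase1 at 2.34-fold or more and Ctrl (0.29 ± 0.10), and 3 fell, led by Cela1 (-1.81 ± 0.45), where 17.8% of all genes rose and 16.1% fell. Within set A 1 rose and 0 fell. Without Sav1 floxed liver 2 the counts were 0 and 1, and without floxed liver 3 the rises numbered 1. In Mst1/2 tumours Cela1 fell (-1.89 ± 0.52), a count of 1 that was 0 without Mst1/2 floxed liver 4, and 0 rose by limma (0 at an unadjusted p under 0.05).

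**Figure D4:**
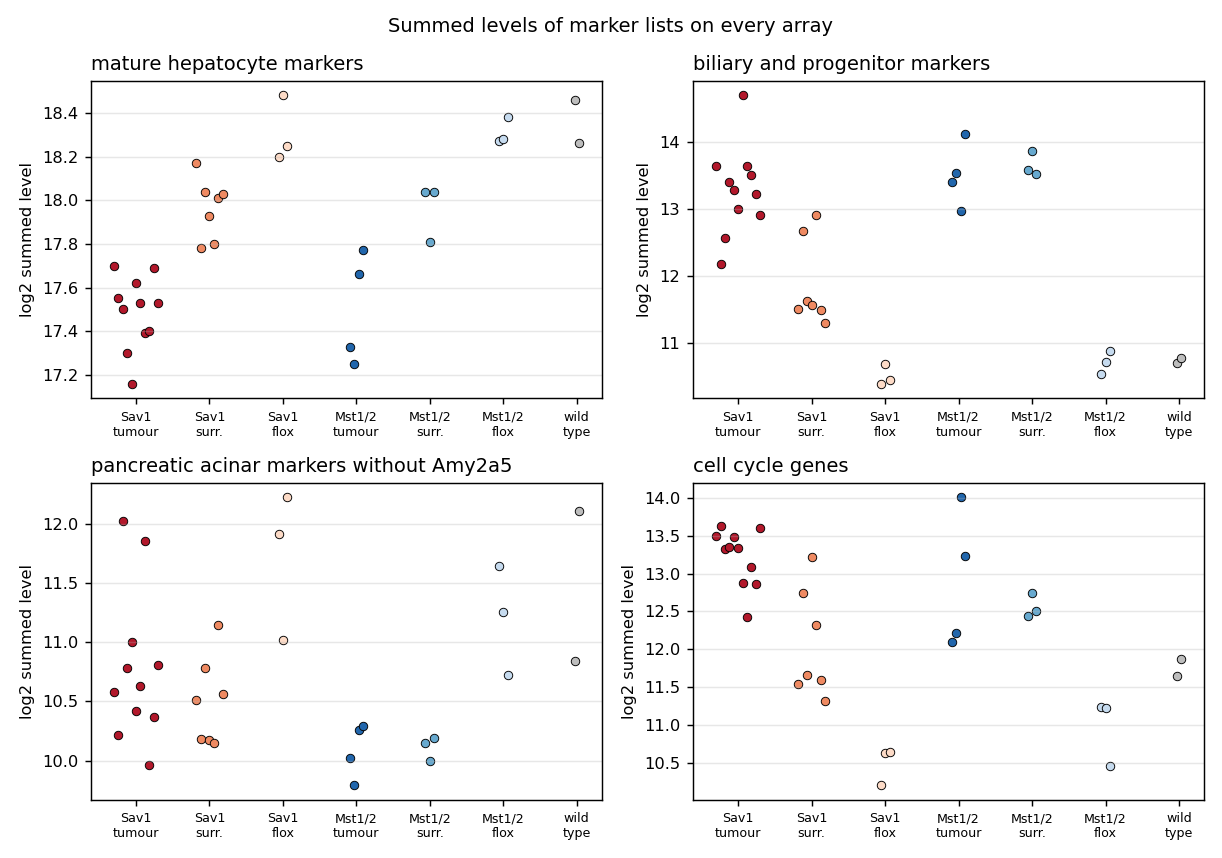
Log2 of the summed level of 4 marker lists on each array, by group, with tumour left of surrounding and floxed liver in each line. Mature hepatocyte markers are lowest in tumours. Cell cycle genes are mostly highest in tumours in the Sav1 line. In the Mst1/2 line the tumours, at 12.10 to 14.01, lie on both sides of the surrounding livers, at 12.44 to 12.74. The acinar sum, drawn without Amy2a5, is 9.96 to 12.03 in Sav1 tumours and 11.02 to 12.23 in Sav1 floxed livers.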

How the data were processed

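Total RNA of mouse liver tissue was labelled with biotin and hybridised to Illumina MouseWG-6 v2.0 arrays, per the labels' protocols, with BeadStudio as the software per the submitters' processing notes. The deposited files hold linear intensity values of 45281 probes on 33 arrays without detection p-values, and the authors also gave a matrix of log2 values, which the authors' columns showed to be log2 quantile-normalized signals within 0.005, uncentred, with a median of 6.57 in each column and no change of direction. Intensities were corrected here with normexp (offset 50), quantile normalized and fitted over 7 groups with limma 3.58.1 in R 4.3.3, with two-sided p-values adjusted by Benjamini-Hochberg over the 13618 genes and a threshold of 0.05. The background threshold of an array was the 99 percentile of a background distribution mirrored about its mode. Probes above it on at least 3 arrays were kept (22482 probes), and the probe of highest mean stood for a gene. Of the probes 34885 have 1 gene in the platform annotation, 18 several and 10378 none, and 34807 matched RefSeq by Entrez ID. Precision is limited by how many arrays a group has.

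The members and all gene lists were chosen with earlier results of these data known. Named list genes were up to 4 with the largest passing rises and falls per comparison, besides Alb, Zhx2, Zbtb20, Gpc4, Igf2 and sex-linked transcripts; Krt19, Krt7, Cftr, Epcam, Amy2a5, Spink2, Spink4 and the acinar genes were named after their values were seen. Permutation tests used scipy 1.17.1, exact for 7 arrays and with 100000 resamples for 11. Replicate numbers of the Sav1 and Mst1/2 surrounding livers deviated together in all 3 pairs (r = 0.184 to 0.34), although mice of different genotype cannot be one animal. Alternatives covered the deposited matrix, background correction, normalization, filter, probe choice, fit, controls, array set, replicate block and left-out arrays. Macrophage, leukocyte, stellate and endothelial lists were also measured. No genome was used.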

Additional observations from a re-analysis of the deposited data

Results flagged for a closer look

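Afp in Sav1 surrounding liver 5 stood at 8.38, apart from the other 6 arrays of its group, the nearest of which was at 6.54. The gap of 0.77 of the group's range exceeded Dixon's critical value for 7 arrays. Chance flags about 1 in 20 groups. The same array had the highest Gpc3 (11.22) and Spink1 (13.28) of its group, and neither of those values stood apart by the same measure. Its mature hepatocyte markers summed to 17.80 and its macrophage and leukocyte markers to 15.50, which were sixth and second of the 7 arrays.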

How the results depend on the processing

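Of 357 tested values of Gpc3, Afp and Spink1 under alternatives 328 kept their direction and side of the threshold. Described values have no threshold. Of 294 such values 287 kept their direction and moved by less than the SD of the first group named. Another 6 moved further and 1 reversed. With an offset of 16 the differences between Mst1/2 tumours and floxed livers were 7.49 for Gpc3 and 8.84 for Spink1. With the mean of a gene's probes Gpc3 differed by -1.71 (adjusted p = 0.050) between the tumours of the lines. Fitting only the groups compared gave Afp 0.47 (adjusted p = 0.033) in Mst1/2 surrounding against floxed livers. It gave Afp -2.43 (0.18) between tumours of the lines and Gpc3 -2.59 (0.052) between surrounding livers of the lines. The main fit took 1 spread per gene over all 7 groups. For Afp the SD was 1.87 in Mst1/2 tumours, 0.28 in Mst1/2 surrounding livers and 0.03 in Mst1/2 floxed livers. With the array set as a block, Gpc3 was 1.73 (0.086) in Sav1 surrounding against floxed livers and -1.47 (0.042) between tumours of the lines, and Afp turned to 1.06 (0.56) between surrounding livers and to -0.28 (0.96) in the difference between the lines. Within set A Spink1 was 4.38 in Sav1 tumours against floxed and -0.77 against surrounding livers, and Gpc3 1.85 (0.21) in surrounding livers. Within set B Gpc3 was -1.47 (0.033) and Afp -1.87 (0.080) between tumours of the lines, and the correlation of Gpc3 with Afp 0.28. No label says that arrays of one replicate number share an animal, and arrays of different genotype cannot. With that number as a block, Spink1 was 4.38 in Sav1 tumours and 5.16 (0.060) in Sav1 surrounding livers against floxed livers. Gpc3 was 1.85 (0.23) in those surrounding livers. Between the lines Afp was -2.83 (0.41) in tumours and Spink1 -1.80 (0.031) in surrounding livers. Same-numbered Sav1 tumours and surrounding livers had deviations with r of 0.0694 to 0.692. No paired analysis was possible for the Mst1/2 groups against their floxed livers because they share no replicate number. Leaving out Sav1 surrounding liver 5 and Mst1/2 surrounding liver 2 together, chosen after seeing the data, gave Gpc3 2.04 in Mst1/2 tumours against surrounding livers and -2.52 (0.070) between surrounding livers, and Afp -0.10 (0.99) in the difference between the lines. The cause of these moves was not tested.

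Leaving out 1 array at a time, Afp ran from -0.37 to 0.08 between surrounding livers of the lines (reversed without Sav1 number 3, 0.03, or Mst1/2 number 2, 0.08), from -0.26 to 0.19 in the difference between the lines (reversed at -0.06 without Sav1 floxed liver 1 or Mst1/2 surrounding liver 1, -0.03 without number 3 and -0.26 without Sav1 surrounding liver 5) and from -3.06 to -1.75 between tumours. Gpc3 ran from -2.92 to -2.19 between surrounding livers, -1.66 to -1.32 between tumours, and 1.42 to 2.04 in Mst1/2 tumours against surrounding livers.

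The count of other oncofetal genes that rose was 6 in Sav1 tumours against floxed livers, but 1 with only the groups compared or the replicate block, 2 with the array set as a block and 3 within set A. In Mst1/2 tumours it was 11 against the mean of the 3 normal groups. In Sav1 surrounding livers it was 1 with offset 16, a filter of 7 arrays, the mean of probes, trend and robust moderation or only the groups compared, 2 under median scaling and 4 against the mean of the normal groups. In Mst1/2 surrounding livers it was 9 with only the groups compared and 0 without the 2 arrays named above. In tumours against surrounding livers it was 1 in each line with only the groups compared or the set as a block, and 1 within set A. With 1 array left out it ran from 2 to 6 in Sav1 tumours, 3 to 8 in Mst1/2 tumours, 0 to 1 in Sav1 and 0 to 2 in Mst1/2 surrounding livers, and 0 to 1 in Mst1/2 tumours against surrounding livers.

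Genes called numbered 4621 in Sav1 tumours against floxed livers (75 to 6291 over alternatives), 2853 in Mst1/2 tumours (2639 to 4607), 1472 in Sav1 surrounding livers (0 to 2836) and 568 in Mst1/2 surrounding livers (205 to 4117). Median scaling moved all genes up by 0.45, 0.27, 0.38 and 0.24 in these 4 comparisons, and the share of calls that were higher was 87.8%, 82.8%, 92.6% and 89.3% with it, against 52.4%, 56%, 48.9% and 66.2%. Low signal limits Afp, which was above background on 18 of 33 arrays.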

Other observations

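Macrophage and leukocyte markers also differed between the groups. Of 9 tested, 7 rose and 2 fell in Sav1 tumours against floxed livers, and 8 rose in Sav1 surrounding livers, where the median log2 difference was 2.20 (all genes 0.03). Of all genes 17.8% rose and 16.1% fell in these tumours and 5.29% rose in these surrounding livers. The tumour count of 7 was 4 without Sav1 floxed liver 2 or 3 and 2 within set A, and the surrounding count of 8 was 4 without Sav1 floxed liver 2 and 0 within set A. In the Mst1/2 line 4 rose and 1 fell in tumours (11.7% and 9.22% of all genes), and 1 rose in surrounding livers (2.76% of all genes). The 4 became 1 without Mst1/2 floxed liver 4 or 6 or tumour 4, and 2 without floxed liver 5 or tumour 3; the 1 in surrounding livers became 0 without any one floxed liver or surrounding liver 2. Of 10 stellate and endothelial markers 3 rose and 3 fell in Sav1 tumours, 1 each within set A, and 0 passed by limma in the surrounding livers of either line (3 at an unadjusted p under 0.05 in each).

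Eif2s3y, a gene of the Y chromosome, ran from 7.51 to 12.22 over the 11 Sav1 tumours, where the Sav1 surrounding livers lay between 11.11 and 11.79 and the floxed livers at 11.25, 11.79 and 11.36. The wild-type livers had Eif2s3y at 6.70 and 6.99 with Xist at 6.30 on both arrays.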
